A study of Homo sapiens with 9 samples.

Results

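The miR-30 family was followed in small RNA libraries of Jurkat clone E6-1, a human T lymphoblast line that is a single clone. The members were picked by name as 10 mature miRNAs out of 2654 in the table of raw counts, 5 from the 5p and 5 from the 3p arm of their hairpins. They are hsa-miR-30a-5p, hsa-miR-30b-5p, hsa-miR-30c-5p, hsa-miR-30d-5p, hsa-miR-30e-5p, hsa-miR-30a-3p, hsa-miR-30b-3p, hsa-miR-30c-1-3p, hsa-miR-30d-3p and hsa-miR-30e-3p. All were found, on 11 of the 2883 rows, because hsa-miR-30c-5p is listed under both of its precursors (mir-30c-1 and mir-30c-2) with the same counts on each. The 9 small RNA libraries of this line comprise 3 biological replicates without activation (0 h) and 3 each after 5 h and 12 h on plates coated with antibody to CD3 (10 µg/mL), with antibody to CD28 (5 µg/mL) in the medium. Unactivated cells were sampled at 0 h alone, so activation cannot be told apart from time in culture.

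miRNAs guide Argonaute proteins to messenger RNAs, chiefly through the seed, which is bases 2 to 8 from the 5′ end. Each hairpin can give a miRNA from its 5p arm and another from its 3p arm, and often one arm is kept while the other is degraded. The 5p arms of the miR-30 family share one seed, so they are taken to share most targets. Reported targets include the autophagy gene BECN1, the transcription factor SNAI1 and PRDM1, a regulator of lymphocyte differentiation. The 3p arms have other seeds.

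The mature sequences below show which members share a seed (capitals, bases 2 to 8, 5′ to 3′). They are from RefSeq on GRCh38.p14, where 6 of the 10 members were matched.
hsa-miR-30a-5p: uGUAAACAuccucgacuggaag
hsa-miR-30c-5p: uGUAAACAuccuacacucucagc
hsa-miR-30e-5p: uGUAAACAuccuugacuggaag
hsa-miR-30a-3p: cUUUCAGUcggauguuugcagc
hsa-miR-30e-3p: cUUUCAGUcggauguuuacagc
hsa-miR-30c-1-3p: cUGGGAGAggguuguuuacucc
The 5p arms shown carry the seed GUAAACA and are alike in their first 12 bases. Among the 3p arms, hsa-miR-30a-3p and hsa-miR-30e-3p share the seed UUUCAGU, and hsa-miR-30c-1-3p has UGGGAGA. Counted from 1 at the 5′ end, with miR-30e as the reference, miR-30a differs from it by a single base in each arm, U13C in the 5p arm and A18G in the 3p arm. The seed UGGGAGA is shared by hsa-miR-30c-2-3p, with 1 count in all 9 libraries together, and by hsa-miR-6788-5p, with 0.

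The genes of these members lie in introns of longer transcripts, by the GENCODE 29 annotation of GRCh38. MIR30E (chr1:40754355-40754446, plus strand) and MIR30C1 (chr1:40757284-40757372, plus strand) are 2837 bases apart within NFYC, which codes for a subunit of the CCAAT-binding factor NF-Y on the same strand. MIR30C2 (chr6:71376960-71377031, minus strand) and MIR30A (chr6:71403551-71403621, minus strand) are 26519 bases apart within the long noncoding RNA genes LINC00472 and AL136164.2, also on the same strand. The hairpins of the NFYC pair, whose arms are compared below, are shown with both mature arms in capitals.
MIR30E: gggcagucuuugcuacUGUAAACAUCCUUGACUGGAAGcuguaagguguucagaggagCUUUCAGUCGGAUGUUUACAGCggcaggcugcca
MIR30C1: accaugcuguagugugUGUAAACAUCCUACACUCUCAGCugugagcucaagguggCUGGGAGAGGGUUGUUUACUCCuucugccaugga

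The libraries held 6631839 to 16207031 counts, and the shallowest were replicate 3 of 0 h (7083813 counts) and replicate 3 of 12 h (6631839 counts). Levels are in CPM, a miRNA's counts in every 1000000 of a library once library sizes were scaled by TMM. In these units 3 counts correspond to 0.176 to 0.471 CPM, a floor that covers counting error only. The library sizes sum all rows kept for testing, so a miRNA listed under several precursors enters them more than once. CPM are thus lower than shares of the counts with each mature miRNA counted once. As a check of the cell type, the blood lineage miRNA miR-142-3p averaged 9203 CPM and miR-150-5p 259 CPM over the 9 libraries. Of 18 marker miRNAs of other tissues, 13 had at least 1 count in some library. The remaining 5 were at 0 counts in all 9 libraries, among them the neuronal miR-124-3p and the muscle miR-1-3p. With these 5 included, 8 of the 18 averaged under 1 CPM. Summed, the 18 ranged from 432 to 542 CPM in the controls, from 533 to 636 after 5 h and from 508 to 584 after 12 h. Most of it was the neuronal miR-9-5p (161 CPM over all libraries), the myeloid miR-223-3p (134) and the epithelial miR-200c-3p (103). The epithelial miR-141-3p averaged 62.7 CPM and miR-203a-3p 30.7, and the liver miR-122-5p reached 66.8 CPM at its highest.

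The family was carried by 3 mature miRNAs. hsa-miR-30d-5p averaged 892 ± 125 CPM (SD, n = 9), hsa-miR-30e-3p 715 ± 94.3 and hsa-miR-30e-5p 539 ± 77.9, which ranked 49th, 55th and 62nd by mean CPM among the 626 mature miRNAs tested. Next came hsa-miR-30c-1-3p at 41.2 ± 10.1 CPM, rank 158, hsa-miR-30b-3p at 24.8 ± 8.95, rank 184, hsa-miR-30c-5p at 22.7 ± 7.50, rank 189, and hsa-miR-30b-5p at 16.8 ± 4.80, rank 210. hsa-miR-30a-3p (6.51 ± 2.21 CPM, rank 289) and hsa-miR-30a-5p (0.751 ± 0.292 CPM, rank 572) were lower still. hsa-miR-30d-3p (0.432 ± 0.663 CPM) did not pass the filter on low counts, so 9 of the 10 members were tested.

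The steps in that order were uneven. hsa-miR-30e-5p was 13.1-fold above the next member, hsa-miR-30c-1-3p, and the ranges of the pair over 9 libraries did not overlap. Ranges were also apart between hsa-miR-30b-5p and hsa-miR-30a-3p (2.59-fold) and between hsa-miR-30a-3p and hsa-miR-30a-5p (8.66-fold). All other neighbours overlapped in range, although hsa-miR-30e-3p was above hsa-miR-30e-5p in all 9 libraries and hsa-miR-30d-5p above hsa-miR-30e-3p in 7. hsa-miR-30b-3p was above hsa-miR-30c-5p in 4 of 9 libraries, so this pair had no order.

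**Figure D1:**
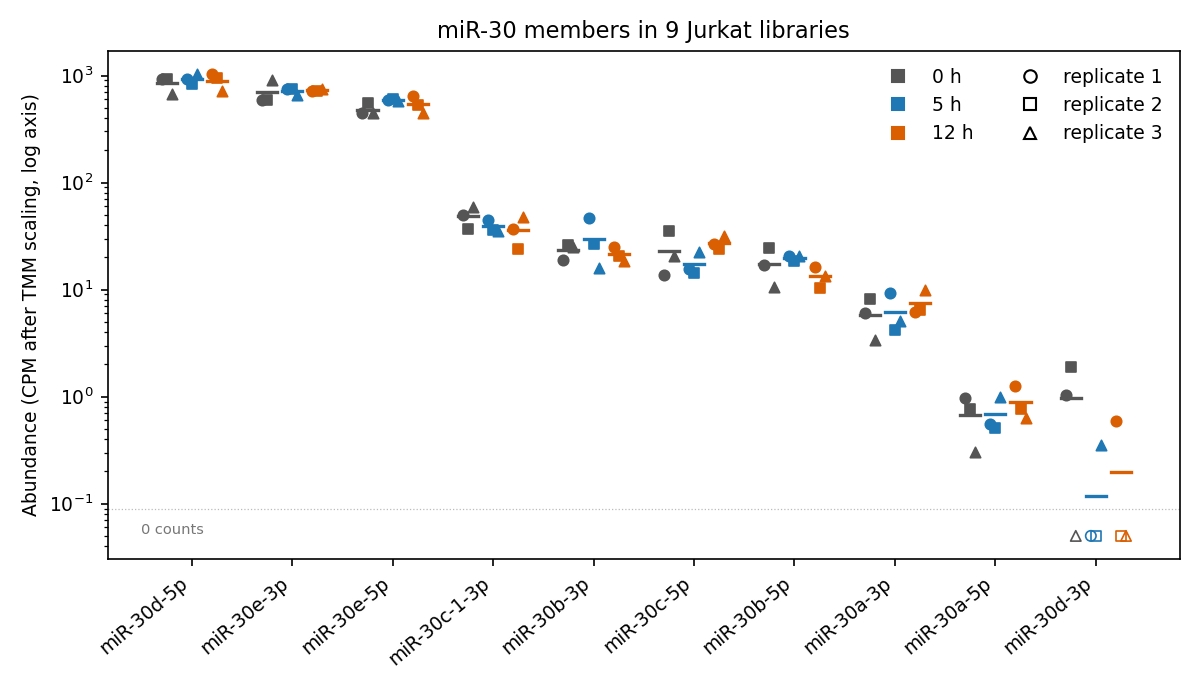
CPM of the 10 members on a log axis, with 1 point per library, colours for the time, shapes for the replicate and bars for the mean of 3 libraries. Points at the bottom stand for 0 counts. hsa-miR-30d-5p, hsa-miR-30e-3p and hsa-miR-30e-5p lie at 444 CPM or more in every library, and the others at 58.7 CPM or less.

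The 5p members, which share the seed, reached a total of 1366 ± 195 CPM in the controls, 1565 ± 95.9 after 5 h of activation and 1481 ± 255 after 12 h (SD, n = 3 each). With each mature miRNA counted once, that was 0.210% ± 0.0358, 0.248% ± 0.0237 and 0.233% ± 0.0501 of all counts. hsa-miR-30d-5p and hsa-miR-30e-5p together made up 97.2% ± 0.640 of the summed 5p counts over the 9 libraries, with 60.6% ± 2.78 from hsa-miR-30d-5p and 36.6% ± 2.73 from hsa-miR-30e-5p. The share of hsa-miR-30d-5p was 61.8% ± 3.97 at 0 h, 59.5% ± 2.85 at 5 h and 60.6% ± 1.73 at 12 h, so this share differed between times by less than the SD of the controls. hsa-miR-30c-5p supplied 1.57% ± 0.580, hsa-miR-30b-5p 1.14% ± 0.267 and hsa-miR-30a-5p 0.0501% ± 0.0158. The share of hsa-miR-30c-5p was 1.68% ± 0.657 in the controls, 1.11% ± 0.208 after 5 h and 1.92% ± 0.596 after 12 h, and these shares were not tested.

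For the neighbouring genes in NFYC, the counts of mature miRNA differed in both arms. hsa-miR-30e-5p had 26.2 ± 9.55 times the counts of hsa-miR-30c-5p, and hsa-miR-30e-3p had 18.3 ± 5.09 times those of hsa-miR-30c-1-3p (SD, n = 9). How evenly the libraries captured different sequences was not tested, here or for the arm ratios below. The rows of hsa-miR-30c-5p do not separate its precursors, and how shared reads were counted is not given. If they were counted in full on both rows, the first ratio was the same or larger for the NFYC gene alone. If they were divided between the rows, it could be smaller. In the pair on chromosome 6, the 3p arm hsa-miR-30a-3p had 671 counts over all 9 libraries and hsa-miR-30c-2-3p had 1. Their 5p arms cannot be compared, since the 2341 counts of hsa-miR-30c-5p may come from either of its precursors, and hsa-miR-30a-5p had 85. hsa-miR-30a-5p stood at 0.139% ± 0.0504 of the counts of hsa-miR-30e-5p, and hsa-miR-30a-3p at 0.933% ± 0.338 of those of hsa-miR-30e-3p. Both pairs differ by a single base, and whether the counting separated them in full was not tested.

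**Figure D2:**
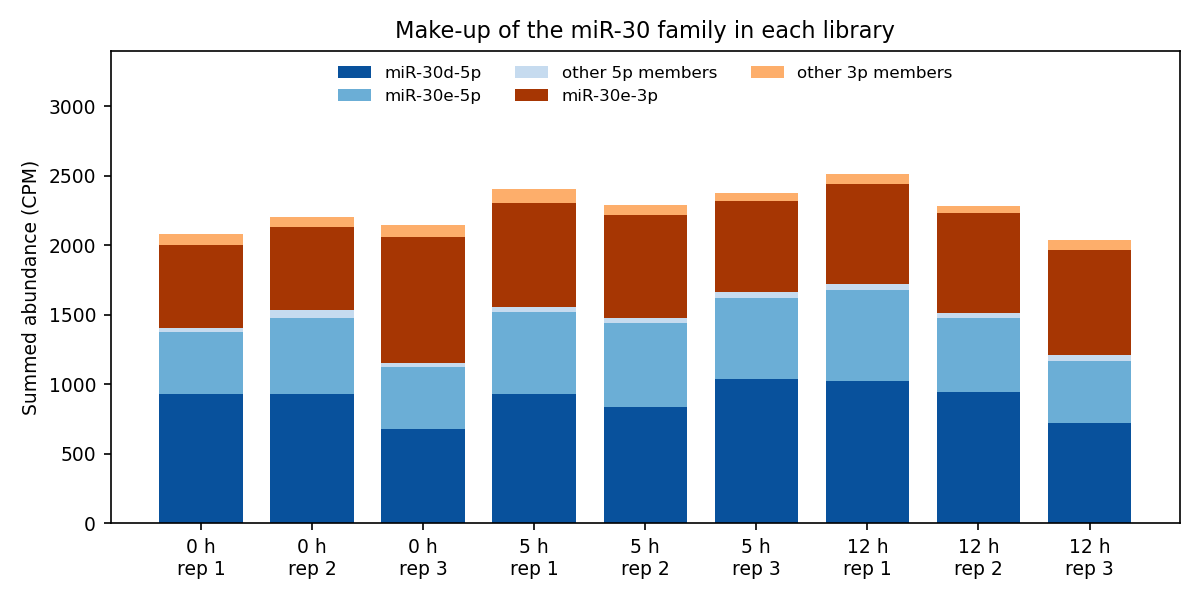
Summed CPM of the family in each of the 9 libraries, stacked by member, with 5p members in blue and 3p members in brown and orange. hsa-miR-30d-5p and hsa-miR-30e-5p form nearly all of the 5p part, and replicate 3 of 0 h and of 12 h have the smallest 5p parts (1154 and 1211 CPM).

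The 2 shallowest libraries stood apart in the balance of the arms. The 3p members held 46.2% of the family's counts in replicate 3 of 0 h (95% Wilson interval 45.3 to 47.0%) and 40.6% in replicate 3 of 12 h (39.8 to 41.5%), against 29.9% to 35.6% in the other 7 libraries. The intervals cover counting error alone. hsa-miR-30d-5p was at 677 and 721 CPM in these libraries and at 833 to 1037 in the other 7. hsa-miR-30e-3p was at 902 CPM in replicate 3 of 0 h and 753 in replicate 3 of 12 h, against 594 to 747 elsewhere. Depth moved with these values, and its part was not tested.

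Both arms passed the filter for 4 of the 6 precursors of the family, and over the 9 libraries all 4 had on average more 3p than 5p, as did 77 (46.7%) of all 165 precursors with both arms tested. For mir-30e the log2 ratio of 5p to 3p counts (0.5 added to each) was -0.41 ± 0.30 (SD, n = 9). That was a 1.33-fold excess of 3p counts, and 3p counts were higher in 9 of 9 libraries. Among the 165 precursors the typical imbalance was 13.5-fold (median) and 26 (15.8%) were within 2-fold. Only 5 (3.03%) had a mean ratio closer to equality than mir-30e.

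The other hairpins differed in their balance. mir-30b had a ratio of -0.55 ± 0.54, with more 3p in 8 of 9 libraries, and replicate 3 of 5 h as the exception (0.36). mir-30c-1 was at -0.89 ± 0.68, also with more 3p in 8 of 9 libraries. The hsa-miR-30c-5p counts may hold reads of the second precursor. If shared reads were counted in full on both rows, the excess of the mir-30c-1 3p arm is a lower estimate. How they were counted is not given, and the excess could be smaller if they were divided between the rows. mir-30a was the most uneven of the 4, at -3.04 ± 0.60, an 8.24-fold excess of the 3p arm, although its 5p arm rested on 2 to 17 counts per library. Whether the counting fully separated its arms from those of mir-30e was not tested. The remaining precursors are mir-30d and mir-30c-2, and the arms of the latter cannot be compared because its 5p counts are not separate. mir-30d went the other way: 96329 counts of hsa-miR-30d-5p stood against 55 of hsa-miR-30d-3p, a 1751-fold excess of the 5p arm, and hsa-miR-30d-3p was at 0 counts in 5 libraries. Its counts were 16, 25 and 0 in replicates 1 to 3 of 0 h, 0, 0 and 6 at 5 h and 8, 0 and 0 at 12 h.

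**Figure D3:**
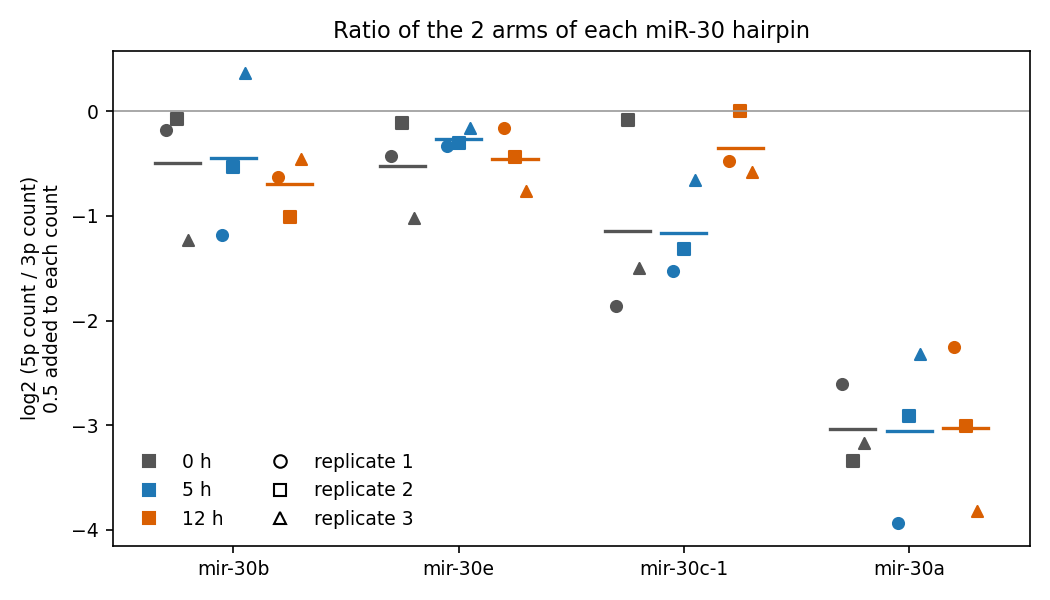
The log2 ratio of 5p to 3p counts for the 4 precursors with both arms tested, with 1 point per library, colours for the time, shapes for the replicate and bars for the mean of 3 libraries. The line at 0 marks equal arms. mir-30e lies below it in all 9 libraries, between -1.02 and -0.12, and mir-30a between -3.94 and -2.25.

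Activation time did not move these ratios past the threshold. For mir-30e the log2 ratios were -0.43, -0.12 and -1.02 in replicates 1 to 3 of 0 h, -0.33, -0.30 and -0.16 at 5 h and -0.16, -0.44 and -0.76 at 12 h, and the groups overlapped. For mir-30c-1 they were -1.86, -0.08 and -1.50 at 0 h, -1.52, -1.32 and -0.66 at 5 h and -0.48, 0.01 and -0.58 at 12 h. The 3 values at 12 h thus lay above the 3 at 5 h but among those at 0 h. The difference between 12 h and 5 h was 0.82 (SE 0.52, 95% interval -0.40 to 2.03, limma adjusted p = 0.877). With limma, 0 of the 4 precursors passed an adjusted p of 0.05 in any of the 3 comparisons, and 0 had an unadjusted p under 0.05. The background was 0% of 165 precursors past the adjusted threshold in each comparison, and 5.45% (5 h against 0 h), 6.67% (12 h against 0 h) and 7.27% (12 h against 5 h) at the unadjusted one.

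At 5 h, none of the 9 tested members passed the test against 0 h (edgeR quasi-likelihood test, Benjamini-Hochberg adjusted p of 0.05 over all 701 rows), where 1.57% of all rows passed. DESeq2 and limma-voom also called 0 of them. hsa-miR-30e-5p came nearest. It had 444, 548 and 446 CPM in replicates 1 to 3 of 0 h and 594, 606 and 584 CPM at 5 h. Every library at 5 h was above every control. The difference was 1.24-fold (log2 change 0.31, SE 0.14, 95% interval 0.01 to 0.61, unadjusted p = 0.0448, edgeR adjusted p = 0.695). It was the 1 tested member with an unadjusted p under 0.05, against 5.99% of all rows, and the 1 whose groups did not overlap, against 10.8%.

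hsa-miR-30d-5p, the most abundant member, had 931, 929 and 677 CPM at 0 h and 928, 833 and 1037 CPM at 5 h. The groups overlapped, with replicate 3 of 0 h as the low value and replicate 3 of 5 h above every control. The log2 change was 0.14 (SE 0.15, 95% interval -0.18 to 0.46, edgeR adjusted p = 0.996), or 0.01 without the 2 shallowest libraries. hsa-miR-30e-3p, from the same hairpin as hsa-miR-30e-5p, had 597, 594 and 902 CPM at 0 h and 745, 747 and 653 CPM at 5 h. Its log2 change was 0.04 (SE 0.15, 95% interval -0.28 to 0.35, adjusted p = 0.996), and 0.27 without the 2 shallowest libraries, which include the high control (adjusted p = 0.597).

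The less abundant members had wider intervals. hsa-miR-30c-5p had 13.7, 34.9 and 20.7 CPM at 0 h and 15.7, 14.4 and 22.5 CPM at 5 h (log2 change -0.40, 95% interval -1.11 to 0.32). hsa-miR-30b-3p had 19.1, 25.9 and 25.1 CPM at 0 h and 46.4, 26.7 and 15.9 CPM at 5 h, so its spread at 5 h exceeded any difference from the controls. For hsa-miR-30c-1-3p the log2 change was -0.32 (95% interval -0.88 to 0.25), for hsa-miR-30b-5p 0.18 (-0.56 to 0.92) and for hsa-miR-30a-3p 0.08 (-1.07 to 1.22). hsa-miR-30a-5p, with 0.965, 0.765 and 0.305 CPM at 0 h and 0.560, 0.513 and 0.997 CPM at 5 h, had a fitted interval from -4.11 to 4.15, wider than the spread of its values, and rested on 2 to 17 counts per library. Over the 9 members the median log2 change was 0.08, with 7 above and 2 below 0, beside a median of 0.03 over all 701 rows.

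At 12 h against 0 h, again 0 of the 9 members passed in edgeR, where 1.43% of all rows did. DESeq2 and limma-voom called 0 as well. None had an unadjusted p under 0.05 (7.28% of all rows) and none had groups that did not overlap (12.1%). hsa-miR-30d-5p had 1025, 946 and 721 CPM at 12 h (log2 change 0.09, SE 0.15, 95% interval -0.23 to 0.40, adjusted p = 0.986). hsa-miR-30e-5p had 650, 531 and 445 CPM (log2 change 0.18, SE 0.14, 95% interval -0.12 to 0.48, adjusted p = 0.922). hsa-miR-30e-3p had 724, 719 and 753 CPM (log2 change 0.07, SE 0.15, 95% interval -0.24 to 0.38, adjusted p = 0.991). For the abundant 3, the intervals at 12 h thus reached from 0.846-fold to 1.40-fold. For comparison, miR-132-3p went from 442 ± 39.9 to 3532 ± 136 CPM between the same libraries, a 7.99-fold change (edgeR adjusted p = 1.48e-12).

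Among the others, the lowest p at 12 h was that of hsa-miR-30c-1-3p, with 49.8, 36.9 and 58.7 CPM at 0 h and 37.2, 24.0 and 47.2 CPM at 12 h (log2 change -0.43, SE 0.27, 95% interval -0.99 to 0.14, adjusted p = 0.848). Its groups overlapped. hsa-miR-30b-5p had 16.9, 24.7 and 10.7 CPM at 0 h and 16.3, 10.3 and 13.3 CPM at 12 h (log2 change -0.39, 95% interval -1.13 to 0.35). hsa-miR-30c-5p had 26.7, 24.0 and 31.5 CPM at 12 h (log2 change 0.25, 95% interval -0.47 to 0.96), hsa-miR-30b-3p 25.1, 20.8 and 18.4 CPM (-0.12, -0.84 to 0.60). hsa-miR-30a-3p had 6.04, 8.10 and 3.35 CPM at 0 h, 9.24, 4.21 and 5.10 CPM at 5 h and 6.20, 6.41 and 9.89 CPM at 12 h (log2 change at 12 h 0.35, 95% interval -0.80 to 1.50). Over the 9 members the median log2 change was 0.09, with 6 above and 3 below 0, beside 0.01 over all rows.

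**Figure D4:**
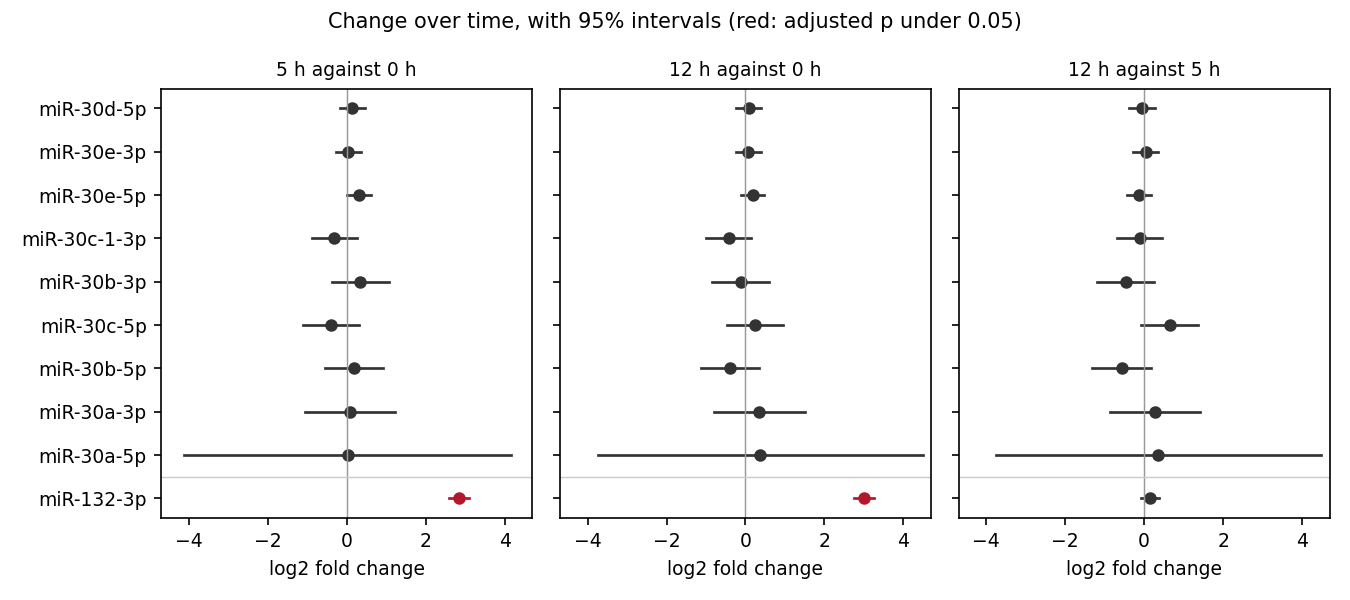
Log2 fold changes of the 9 tested members and, under the line, of miR-132-3p, in the 3 comparisons, with points for the estimate and bars for the 95% interval of the edgeR fit over 9 libraries. Members are ordered by abundance, and the intervals of the 3 most abundant are the narrowest. Red marks an adjusted p under 0.05, which miR-132-3p reached against 0 h and no member reached.

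Between 12 h and 5 h, 0 of the 9 members passed in edgeR (0.571% of all rows did), 0 in DESeq2 and limma-voom, and 0 had an unadjusted p under 0.05 (6.13% of all rows). In 2 of the 9 the groups did not overlap (12.8% of all rows), and these went opposite ways. hsa-miR-30c-5p went from 15.7, 14.4 and 22.5 to 26.7, 24.0 and 31.5 CPM (log2 change 0.64, SE 0.34, 95% interval -0.07 to 1.36, unadjusted p = 0.0749, adjusted p = 0.720). hsa-miR-30b-5p went from 20.4, 18.5 and 20.5 to 16.3, 10.3 and 13.3 CPM (log2 change -0.57, SE 0.35, 95% interval -1.31 to 0.17, adjusted p = 0.850). Both are 5p members of low abundance. The ratio of hsa-miR-30c-5p to hsa-miR-30b-5p counts, chosen after the values were seen and so given with no test, was 0.810, 1.41 and 1.94 in the 3 controls, 0.767, 0.778 and 1.10 at 5 h and 1.64, 2.34 and 2.36 at 12 h. The 5 h values lay under the 12 h values, while the controls spanned both.

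The log2 change from 5 h to 12 h was -0.06 for hsa-miR-30d-5p (95% interval -0.37 to 0.26), 0.03 for hsa-miR-30e-3p (-0.28 to 0.35) and -0.13 for hsa-miR-30e-5p (-0.44 to 0.17). A test for any difference among the 3 times also passed 0 of the 9 members, with 1.71% of all rows passing. The lowest adjusted p of a member in it was 0.857, for hsa-miR-30e-5p.

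Set beside other families with several abundant paralogs, the miR-30 members were not alone in passing no test. None of the 9 let-7 and miR-98 5p arms, 4 miR-181 5p arms, 3 miR-29 3p arms and 2 miR-26 5p arms passed in any of the 3 comparisons. Few rows of any kind did: 1.57% of all rows at 5 h, 1.43% at 12 h and 0.571% between 12 h and 5 h. With lists this short, a count of 0 thus does not set these families apart from other rows. The median size of the log2 change at 5 h was 0.18 over the 9 miR-30 members, against 0.07 for let-7 and miR-98, 0.08 for miR-181, 0.06 for miR-29 and 0.02 for miR-26. It was 0.11 over the 119 tested miRNAs of at least 100 CPM and 0.37 over all rows, most of which have low counts, as 6 of the 9 miR-30 members do. The abundant 3 had log2 changes of 0.14 (hsa-miR-30d-5p), 0.04 (hsa-miR-30e-3p) and 0.31 (hsa-miR-30e-5p) at 5 h. The families were not matched for level, so these medians do not rank them.

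Across the 9 libraries, the miRNAs whose log2 CPM followed the summed 5p members most closely, out of 116 others of at least 100 CPM, were miR-363-3p (Pearson r = 0.925), miR-324-5p (r = 0.900) and miR-146b-5p (r = 0.841). All come from the same libraries and share their depth and scaling. miR-363-3p averaged 467 ± 64.8 CPM in the controls, 511 ± 23.3 after 5 h and 479 ± 53.0 after 12 h. miR-324-5p averaged 491 ± 41.0, 560 ± 40.7 and 495 ± 78.5 CPM in the same order. miR-146b-5p had 150 ± 22.9, 178 ± 12.7 and 169 ± 45.4 CPM.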

How the data were processed

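The authors deposited raw counts per pair of miRNA precursor and mature miRNA, and log2 values. Per the submitters' processing notes, GRCh38.p13 and DESeq2 were used; the aligner and the counting tool: not given in the sources used here. The log2 values, on 430 rows above 0 in all 9 libraries, match, within 5.05e-09, the counts scaled by a single factor for each library, with 1 added before the log, and served in an alternative. Rows passing filterByExpr (minimum count 10, minimum total 15; 701 rows, 10 of members) were scaled by TMM and fitted in edgeR 4.0.16 (R 4.3.3) with 1 mean per time over all 9 libraries. SEs are the log2 change over the root of F. Arm ratios were fitted with limma 3.58.1 over all precursors with both arms tested. Where a mature miRNA has several rows, the highest was used for levels. The fits were run on simulated data, for edgeR with 4-fold changes and a spread set below the common estimate from these data. Those runs do not measure the power to find changes as small as those of the members. DESeq2 1.42.0, limma-voom, other scalings and filters, 1 row per mature miRNA and left-out libraries were alternatives. No 2 libraries of the same time were duplicates (chi-square over degrees of freedom 83.6 or more). Pairs from different times were not checked in this way. Named were all members, miRNAs sharing their seeds, the 3 nearest in pattern, and miR-132-3p. Members, lists and tests were chosen with earlier results of these data known. Figures used matplotlib 3.10.9.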

Additional observations from a re-analysis of the deposited data

How the results depend on the processing

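No miR-30 member passed in any of the 3 comparisons under the 21 alternatives, nor in the test over all times under those that apply to it (all except the fit of only the 2 groups compared). The lowest adjusted p of a member in the 3 comparisons was 0.393. Of 558 recomputed log2 changes, 41 had another sign than the reported value, all of them not past the threshold, and 18 moved by more than 1 SE. In 8 of 27 pairs of member and comparison the sign held in every alternative that could test the member, among them hsa-miR-30e-5p (0.24 to 0.38) and hsa-miR-30d-5p (0.00 to 0.25) at 5 h and hsa-miR-30c-5p (0.51 to 0.85) and hsa-miR-30b-5p (-0.77 to -0.41) between 12 h and 5 h. hsa-miR-30a-5p and hsa-miR-30a-3p were too low for some filters and were not tested there. Upper quartile factors moved the median log2 change of all rows from 0.01 to 0.17 at 12 h against 0 h and from -0.03 to 0.13 between 12 h and 5 h. With them, the calls at 12 h split into 9 higher and 1 lower, and with library totals into 7 and 1, in place of 7 and 3.

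The background count of all rows moved more. With no filter on low counts it was 17 in place of 11 at 5 h, 12 in place of 4 between 12 h and 5 h, and 21 in place of 12 over all times. On the deposited log2 values it was 5 at 5 h, 6 in place of 10 at 12 h and 7 over all times, and with only the 2 groups compared it was 6 at 12 h. With the replicate number as a block it was 11 between 12 h and 5 h and 21 over all times, and the block changed no call of a member. Same-numbered libraries had correlations of -0.03 to 0.06 between their deviations from the group means, and 5 of 9 libraries correlated best with their own number. These values cannot show whether the numbers pair the libraries. Leaving out 1 library gave 9 to 11 at 5 h, 8 to 10 at 12 h, 3 to 10 between 12 h and 5 h (10 without replicate 1 of 12 h) and 7 to 15 over all times (the lowest with replicate 2 of 12 h left out, the highest with its replicate 1 left out). For arm ratios, where 0 precursors passed, both arms at 10 CPM or more in 3 libraries gave 1 in each comparison, and leaving out 1 library gave 0 to 2 at 5 h (2 without replicate 1 of 0 h), 0 to 3 at 12 h (3 without replicate 2 of 5 h) and 0 to 1 between 12 h and 5 h (1 without replicate 2 of 5 h), none of them in the family. The summed level of the 5p members stayed within 1 SD of the reported value under every other scaling. hsa-miR-30a-5p, hsa-miR-30a-3p and hsa-miR-30d-3p had no more than 106 counts in any library, which limits the precision of their values.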
